A study of Mus musculus with 3 samples.

Results

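Trans-synaptic adhesion molecules are surface proteins that meet across the synaptic cleft or hold neighbouring neuronal membranes together. The 41 genes described here were taken by family name, whatever their values, out of 32285 genes listed in the count table. They fall into 13 families, namely neurexins, neuroligins, LRRTMs, SLITRKs, teneurins, latrophilins, FLRTs, calsyntenins, LAR-type receptor phosphatases, IL1RAPLs, CADMs, IGSF11 and IgLONs. All 41 had at least 1 UMI (unique molecular identifier, a single captured transcript) in the neuronal nuclei of each library.

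The lateral habenula (LHb) of mice was dissected, and RNA was counted in single nuclei sorted by KASH-GFP, a fluorescent tag anchored in the nuclear envelope. The 3 libraries were made from mothers, defined in the series as sexually experienced females, from virgin males and from virgin females, with 3 mice in each. The sorted population is labelled BNST LHb neurons, where BNST stands for the bed nucleus of the stria terminalis, in the basal forebrain. The title of the series concerns female parental behaviour. The sources used here do not say how the tag reached these neurons, nor the strain and age of the mice. As each group was 1 library, no test between groups is possible, and intervals in square brackets are 95% intervals that cover counting error only.

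Of 603 nuclei, 592 were annotated as neurons by the authors, 201 in mothers, 204 in virgin males and 187 in virgin females. They carried 2691639, 2122919 and 2718356 UMIs in these libraries, with a median of 11898, 9414 and 13181 UMIs per nucleus. The authors' clusters 0 to 4 held 172, 157, 97, 91 and 75 neuronal nuclei. A list of 6 thalamic neuron markers summed to 7089, 2053, 8266, 10641 and 1454 CPM (UMIs per 1000000) in clusters 0 to 4, and a list of 6 lateral habenula markers to 899, 1893, 1116, 1173 and 1760.5 CPM. Pou4f1, a habenular transcription factor, had no UMI in clusters 0, 2 and 3, and Gpr151 none in cluster 3, while the other habenular markers were present there. Whether these nuclei are habenular was not settled by the markers, so clusters are called by number. Marker lists of astrocytes, oligodendrocytes, their precursors, microglia, endothelium and pericytes each summed to at most 238 CPM in any cluster. Ependymal markers reached 422 CPM in cluster 1 and 1599 CPM in cluster 1 of virgin males, carried mostly by 5 nuclei, and 353 CPM over that library.

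As background, presynaptic neurexins and LAR-type phosphatases each bind several postsynaptic ligands. Neuroligins, LRRTMs and calsyntenins bind neurexins, while SLITRKs and IL1RAPLs bind the phosphatases. Teneurins bind latrophilins, which are adhesion G protein-coupled receptors, and latrophilins also bind FLRTs. CADMs and IgLONs bind members of their own families. Such pairings help set where synapses form and how strong they are, and both the habenula and the neighbouring thalamus are rich in glutamatergic neurons that receive and send long-range input.

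Together the 41 genes took 3.89% of neuronal UMIs in mothers, 4.02% in virgin males and 4.04% in virgin females, and between 3.67% (cluster 3) and 4.42% (cluster 4) across clusters. Lsamp, an IgLON, had the most UMIs (49619), followed by the phosphatase gene Ptprd (37237) and the teneurin Tenm2 (24053). Slitrk2 (30 UMIs), Igsf11 (69) and Slitrk5 (151) lay under the 200 UMIs required for a description by cluster, which leaves 38 genes. Raw UMIs followed gene length closely. Across the 41 genes, whose spans run from 5.36 to 2271 kb, Spearman's rho between span and UMIs was 0.905, a description over genes counted in the same nuclei. Per 100 kb of span the highest was Slitrk6 at 923 CPM and the lowest Igsf11 at 6.81 CPM, so levels of different genes are not ranked against each other on the CPM scale.

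Levels by cluster set part of the family members apart from each other. A gene was said to have a cluster pattern when its CPM in the highest cluster was at least 2 times that in the lowest and the highest cluster was the same in all 3 libraries. By this rule 10 of 38 genes had a pattern, beside 16.6% of the 6248 genes with at least 200 UMIs. A range of at least 2-fold alone held for 19 of 38 members (34% of all genes), and the same highest cluster alone for 12 of 38 (26.1%). Among more abundant genes the counts were 8 of 25 members beside 24.8% of 1324 genes at 1000 UMIs or more, and 6 of 15 members beside 39.8% of 166 genes at 5000 or more. At the highest depth the members' share was near that of all genes. Of the 38 members, 1 had a pattern with cluster 0 highest (3.75% of all genes), 3 with cluster 1 (4.32%), 1 with cluster 2 (0.928%), 3 with cluster 3 (3.99%) and 2 with cluster 4 (3.63%). Clusters were made by the authors from the genes of these nuclei, so all levels by cluster are a description and carry no test.

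**Figure D1:**
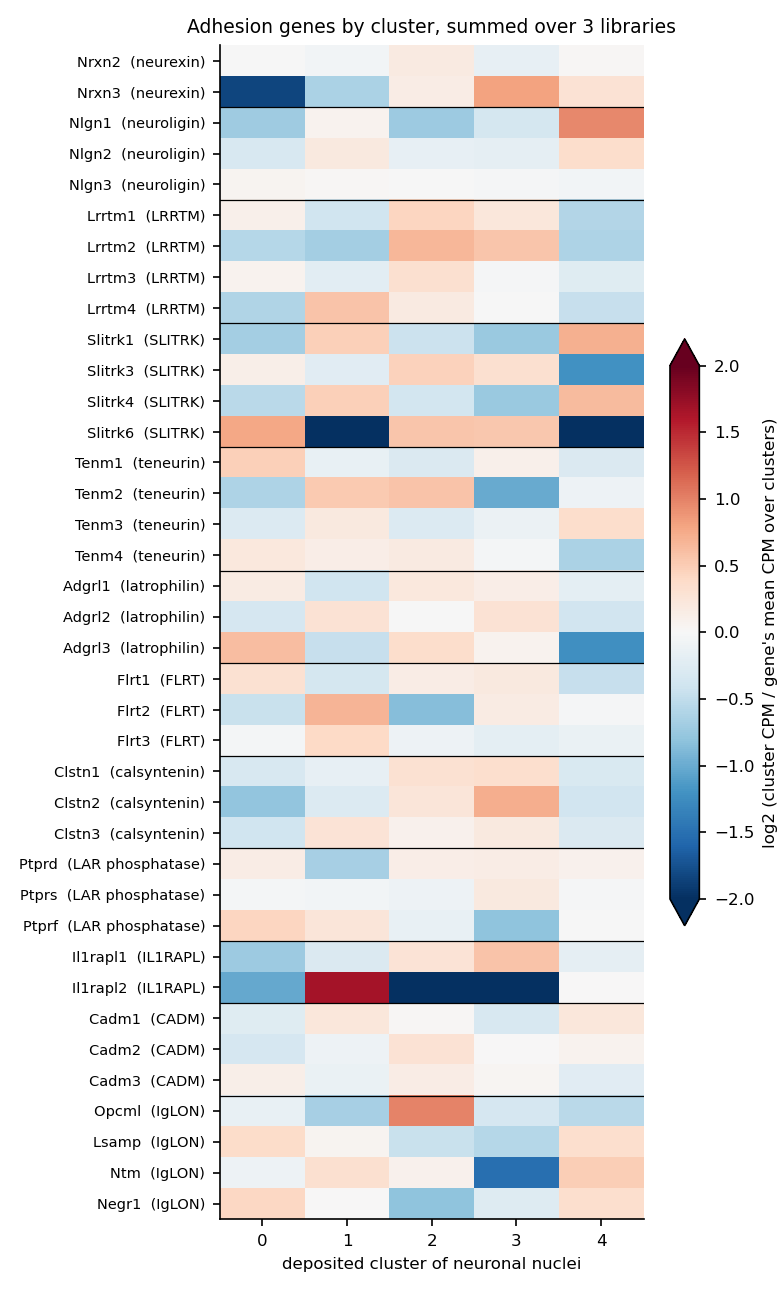
Each of the 38 genes with at least 200 UMIs is a row and each cluster of neuronal nuclei a column; colour gives the log2 of the CPM in the cluster over the gene's mean CPM across the 5 clusters, summed over the 3 libraries. Il1rapl2 stands out in cluster 1, Opcml in cluster 2, Nrxn3 in cluster 3 and Nlgn1 in cluster 4, while Slitrk6 is low in clusters 1 and 4 and Ntm in cluster 3.

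Among the presynaptic partners, the neurexin genes parted ways. Nrxn3 (chr12:88722876-90334935 on GRCm38), which encodes a neurexin with many splice forms, stood at 3245 CPM in cluster 3, against 518 CPM in cluster 0, a difference of 6.26-fold [5.87, 6.69]. In cluster 3 it was at 3833 CPM in mothers, 2842 CPM in virgin males and 2966 CPM in virgin females. In cluster 0 it was at 643 CPM in mothers, 413 CPM in virgin males and 498 CPM in virgin females. The clusters did not overlap over libraries, and clusters 1, 2 and 4 lay between them at 1194, 2050.1 and 2272 CPM. Nrxn2 (chr19:6418731-6544169) was nearly level, from 221 to 280.3 CPM. Of the LAR-type phosphatases, none had a pattern. Ptprd, a receptor phosphatase bound by SLITRKs and IL1RAPLs, stood at 5530.1, 3139, 5483, 5545 and 5292 CPM in clusters 0 to 4 and was lowest in cluster 1 in each library. Ptprs stayed between 295 and 365 CPM, and Ptprf was at 78.6 CPM in cluster 0 and 33.2 CPM in cluster 3, with the highest cluster differing between libraries.

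Among the postsynaptic neurexin ligands, Nlgn1 and Lrrtm4 were highest in other clusters than Nrxn3, while Clstn2 was highest in the same one. Nlgn1 (chr3:25426215-26332460), the neuroligin best known from excitatory synapses, was highest in cluster 4 at 5682 CPM, against 1761 CPM in cluster 2, which is 3.23-fold [3.07, 3.39]. In cluster 4 it was at 5725 CPM in mothers, 6076 CPM in virgin males and 5216 CPM in virgin females. In cluster 2 it was at 1649.8 CPM in mothers, 1904 CPM in virgin males and 1824 CPM in virgin females. Cluster 4 was above the other 4 clusters in each library. Nlgn2, the neuroligin of inhibitory synapses, was at 42.1, 59.9, 47.0, 46.1 and 67.0 CPM in clusters 0 to 4, and Nlgn3, found at both kinds of synapse, spanned only 48.9 to 52.7 CPM, with counting intervals that overlapped.

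Lrrtm4 (chr6:80018877-80810143), a leucine-rich repeat protein of excitatory synapses, was at 3544 CPM in cluster 1, against 1573 CPM in cluster 0, or 2.25-fold [2.16, 2.35]. In cluster 1 it was at 2739 CPM in mothers, 4216 CPM in virgin males and 3601 CPM in virgin females. In cluster 0 it was at 1408 CPM in mothers, 1726 CPM in virgin males and 1588 CPM in virgin females. Cluster 1 was highest in each library. Cluster 3 was near the low end in mothers alone, at 1455 CPM, against 3101 CPM in virgin males and 2693 CPM in virgin females. Lrrtm1, Lrrtm2 and Lrrtm3 had no pattern, with highest-over-lowest ratios of 2.02, 2.54 and 1.47. These 3 genes lie inside introns of catenin genes on the opposite strand, Lrrtm1 in Ctnna2, Lrrtm2 in Ctnna1 and Lrrtm3 in Ctnna3. The sources used here do not say whether counting used strand, so whether these genes share UMIs with the hosts was not settled. Clstn2 (chr9:97444395-98033181), a calsyntenin, was at 635 CPM in cluster 3, against 223 CPM in cluster 0, a ratio of 2.85-fold [2.55, 3.19]. It was at 657 CPM in mothers, 589 CPM in virgin males and 676 CPM in virgin females in cluster 3. The corresponding values in cluster 0 were 239 CPM in mothers, 208 CPM in virgin males and 221 CPM in virgin females. Cluster 3 was highest and cluster 0 lowest in every library, the same end clusters as for Nrxn3. Clstn1 and Clstn3 spanned 223 to 352 CPM and 133 to 210.4 CPM.

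The ligands of the phosphatases held the widest ranges. Il1rapl2 (chrX:137570608-138846946), an X-linked relative of the interleukin-1 receptor accessory protein, was at 969.9 CPM in cluster 1, against 23.0 CPM in cluster 3, or 42.1-fold [30.0, 61.0]. In cluster 1 it was at 926 CPM in mothers, 1176 CPM in virgin males and 881 CPM in virgin females. In cluster 3 it was at 39.5 CPM in mothers, 7.0 CPM in virgin males and 23.0 CPM in virgin females, which rests on 34 UMIs in all. Cluster 4 came second at 307 CPM, and clusters 0 and 2 were at 149 and 75.6 CPM. The low levels rest on few nuclei. The 5% of nuclei richest in Il1rapl2 held 67.8%, 76.7% and 67.6% of its UMIs in clusters 0, 2 and 3. With nuclei thinned to 5000 UMIs, 71.7% [63.0, 79.3] of nuclei in cluster 1 and 55.1% [42.6, 67.1] in cluster 4 had an Il1rapl2 UMI, against 8.99% [3.96, 16.9] in cluster 3 (unthinned 72.0%, 62.7% and 17.6%). None of the 11 non-neuronal nuclei, which are shallower at a median of 4780 UMIs, had one. Il1rapl1 (chrX:86740870-88115645), its paralogue and a gene of X-linked intellectual disability in humans, had another order of clusters. It was at 3462 CPM in cluster 3, against 1409 CPM in cluster 0, a ratio of 2.46-fold [2.35, 2.57]. Its cluster 3 stood at 3305 CPM in mothers, 3709.6 CPM in virgin males and 3306 CPM in virgin females, and its cluster 0 at 1390.3 CPM in mothers, 1149 CPM in virgin males and 1609.8 CPM in virgin females. In cluster 3, where Il1rapl1 was highest, Il1rapl2 was lowest with the libraries summed, although in mothers its lowest cluster was 2.

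The SLITRKs are short genes with few UMIs, and they split into opposite groups. Slitrk6 (chr14:110748580-110755149), a leucine-rich repeat protein known from inner ear innervation and the dorsal thalamus, was at 94.7, 7.41, 81.4, 79.9 and 12.9 CPM in clusters 0 to 4. It differed 12.8-fold [7.31, 24.4] between clusters 0 and 1, but clusters 0, 2 and 3 overlapped in their intervals and a different one of them was highest in each library, so it missed the rule. Each library had Slitrk6 low in clusters 1 and 4, at 6.76 CPM in mothers, 6.5 CPM in virgin males and 8.25 CPM in virgin females in cluster 1 and 17.3 CPM in mothers, 11.0 CPM in virgin males and 5.24 CPM in virgin females in cluster 4. In cluster 0 it was at 70.8 CPM in mothers, 110.1 CPM in virgin males and 102 CPM in virgin females. Thinned nuclei had a Slitrk6 UMI in 35.7% [28.2, 43.8], 36.2% [26.5, 46.7] and 31.5% [22, 42.2] of clusters 0, 2 and 3, and in 2.36% [0.490, 6.75] and 2.90% [0.353, 10.1] of clusters 1 and 4 (unthinned 61.0%, 60.8% and 60.4%, and 7.64% and 6.67%). The 11 non-neuronal nuclei had none. Clusters 0, 2 and 3 are those with the high thalamic marker sums given above. Slitrk1 (chr14:108908800-108914158), named in human Tourette syndrome, was at 24, 53.6, 28.6, 23.0 and 63.1 CPM, highest in cluster 4 and lowest in cluster 3 at 2.74-fold [1.73, 4.38], and rests on 268 UMIs. In cluster 4 it was at 64.4 CPM in mothers, 77.1 CPM in virgin males and 47.1 CPM in virgin females, against 28.7 CPM in mothers, 19.2 CPM in virgin males and 20.1 CPM in virgin females in cluster 3, where the intervals of single libraries are wide. Slitrk4 followed Slitrk1, with 43.8 and 39.3 CPM in clusters 4 and 1 and 16.9 CPM in cluster 3, while Slitrk3, a ligand at inhibitory synapses, was lowest in cluster 4 in each library at 19.3 CPM, against 61.6 CPM in cluster 2. Slitrk2 had no UMI in cluster 2 and 10.3 CPM in cluster 1, and Slitrk5 was between 15.6 and 29.6 CPM.

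The promoters of the genes with the widest ranges, Il1rapl2 and Slitrk6, and of Slitrk1, which lies on the same chromosome as Slitrk6 and was highest in a cluster where Slitrk6 was low, are shown to let their base composition be compared. Each covers 250 bases before and 50 after the start listed in RefSeq (GRCm38.p6), 5′ to 3′ on the gene's strand. Capitals mark TAAT on either strand, the core of many homeodomain sites, and the first 2 matches in Slitrk6 share a base.
Slitrk6 promoter, chr14:110755100-110755399, minus strand: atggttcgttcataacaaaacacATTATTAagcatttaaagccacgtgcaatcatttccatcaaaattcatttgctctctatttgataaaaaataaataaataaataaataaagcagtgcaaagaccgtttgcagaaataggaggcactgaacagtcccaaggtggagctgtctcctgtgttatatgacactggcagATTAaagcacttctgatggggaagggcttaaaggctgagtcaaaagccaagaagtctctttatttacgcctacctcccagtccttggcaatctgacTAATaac
Slitrk1 promoter, chr14:108914190-108914489, minus strand: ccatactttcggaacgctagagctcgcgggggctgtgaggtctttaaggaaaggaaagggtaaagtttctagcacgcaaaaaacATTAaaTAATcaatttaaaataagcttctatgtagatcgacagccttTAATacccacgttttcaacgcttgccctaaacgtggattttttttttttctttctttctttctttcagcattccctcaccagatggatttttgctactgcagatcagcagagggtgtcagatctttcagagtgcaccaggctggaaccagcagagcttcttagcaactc
Il1rapl2 promoter, chrX:137570504-137570803, plus strand: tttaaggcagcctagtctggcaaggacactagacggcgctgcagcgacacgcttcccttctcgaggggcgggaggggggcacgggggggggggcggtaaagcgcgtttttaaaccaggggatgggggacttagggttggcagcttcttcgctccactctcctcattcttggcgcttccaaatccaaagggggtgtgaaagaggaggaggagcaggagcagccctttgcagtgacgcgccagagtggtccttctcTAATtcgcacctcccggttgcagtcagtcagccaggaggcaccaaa
TAAT or its reverse complement ATTA occurred 4 times in the Slitrk6 window, 3 times in that of Slitrk1 and 1 time in that of Il1rapl2, and it is found in 58.0% of the 32851 listed promoters of this length. GC content was 38.3%, 42.3% and 60.3%, with 4, 9 and 16 CpG dinucleotides, beside a median of 52.7% and 7 over all listed promoters. The Slitrk6 and Slitrk1 windows are therefore AT-rich and that of Il1rapl2 is GC-rich. On either strand the windows held no CTTTGA (the TCF/LEF core, in 16% of promoters), AGGTCA (a nuclear receptor half-site, 16.3%), TAATTA (5.29%), AACAAT (a SOX site, 10.7%) or TATAAA (13.6%). A match or its lack describes these letters only.

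**Figure D2:**
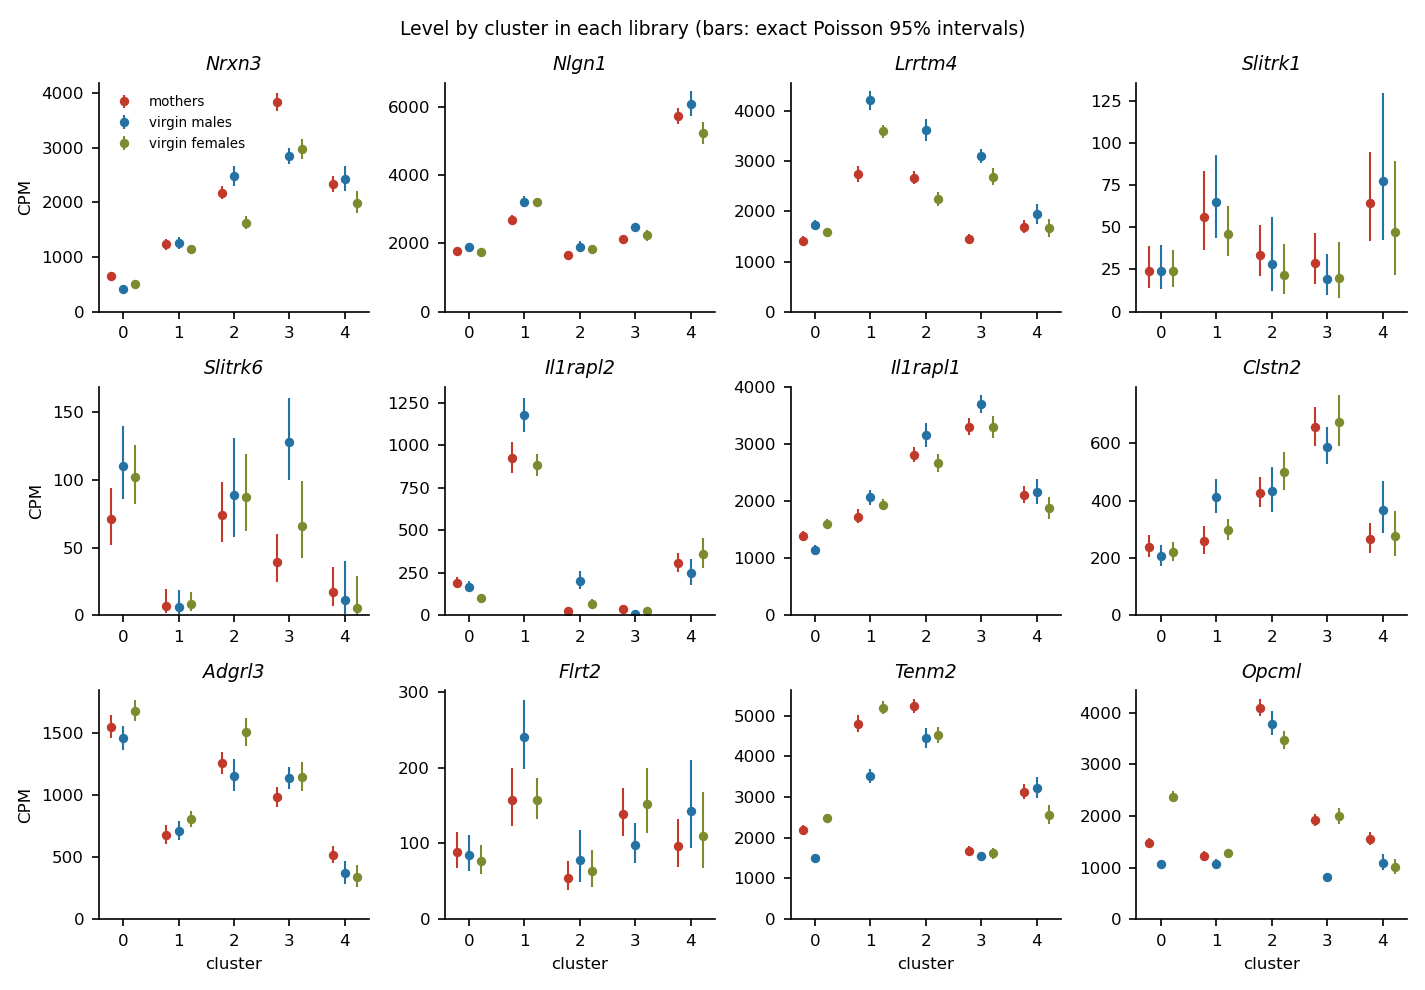
Level (CPM, linear axis from 0) of 12 genes in each cluster and library; points are CPM and bars exact Poisson 95% intervals. Red, blue and olive points are mothers, virgin males and virgin females. The highest cluster recurs in each library for Nrxn3, Nlgn1, Il1rapl2 and Clstn2, while Opcml in clusters 0 and 3 and Lrrtm4 in cluster 3 differ between libraries.

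Teneurins and their receptors had no single order of clusters. Tenm2 (chr11:36006656-37235964), a large single-pass protein that binds latrophilins, was at 2111, 4656, 4838, 1615 and 3016 CPM in clusters 0 to 4. Clusters 2 and 1 were high and clusters 3 and 0 low in all 3 libraries, but mothers and virgin males had it highest in cluster 2 and virgin females in cluster 1, so no pattern was called. Tenm4 was lowest in cluster 4 in each library, at 596 CPM, against 1069 CPM in cluster 0. Tenm1 was highest in cluster 0 in each library, at 2039 CPM, against 1196 CPM in cluster 2, and Tenm3 spanned 511 to 784 CPM. Adgrl3 (chr5:81020138-81825133), a latrophilin studied in attention deficit, was at 1576 CPM in cluster 0, against 439 CPM in cluster 4, or 3.59-fold [3.21, 4.02]. In cluster 0 it was at 1550.0 CPM in mothers, 1457 CPM in virgin males and 1681 CPM in virgin females. In cluster 4 it was at 517 CPM in mothers, 369 CPM in virgin males and 340.4 CPM in virgin females, and these ends were the same in each library. Clusters 1 and 4 were the low clusters for Adgrl3, as they were for Slitrk6. Adgrl1 and Adgrl2 had no pattern, at ratios of 1.53 and 1.59.

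Among the FLRTs, which bind latrophilins and the UNC5 guidance receptors, Flrt2 (chr12:95692226-95785215) had a pattern. It was at 179.6 CPM in cluster 1, against 62.4 CPM in cluster 2, or 2.88-fold [2.26, 3.70]. Flrt2 in cluster 1 was at 158 CPM in mothers, 240.5 CPM in virgin males and 158 CPM in virgin females, and in cluster 2 at 54.6 CPM in mothers, 78.1 CPM in virgin males and 63.3 CPM in virgin females. The clusters did not overlap over libraries, and cluster 2 was lowest in each. Flrt1 and Flrt3 lie inside Macrod1 and Macrod2 on the opposite strand, with which they may share UMIs, and had ratios of 1.69 and 1.52. Macrod1 itself had a cluster pattern, at 224 CPM in cluster 0 and 81.1 CPM in cluster 4.

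The homophilic molecules are 4 IgLONs and 3 CADMs, so counts by family are small. A range of at least 2-fold held for 3 of 4 IgLONs and 0 of 3 CADMs, beside 34% of all genes with at least 200 UMIs. The IgLONs are deeper than that, at 11233 UMIs or more each. Over all 166 genes with at least 5000 UMIs the median highest-over-lowest ratio was 2.27, so a 2-fold range was common there. By the full rule, 1 IgLON had a pattern. Opcml (chr9:27790775-28925410), a lipid-anchored IgLON, was at 3824 CPM in cluster 2, against 1206 CPM in cluster 1, or 3.17-fold [3.01, 3.34]. In cluster 2 it was at 4097 CPM in mothers, 3794 CPM in virgin males and 3469.9 CPM in virgin females. In cluster 1 it was at 1221 CPM in mothers, 1059 CPM in virgin males and 1278 CPM in virgin females. Cluster 2 was highest in every library, whereas the lowest cluster was 1, 3 and 4 in mothers, virgin males and virgin females. Its genomic neighbour Ntm (chr9:28994750-29963141), also an IgLON, was at 2559, 3445, 2935, 963 and 3865 CPM and was lowest in cluster 3 in each library, by 4.01-fold [3.77, 4.28] from cluster 4. Negr1, an IgLON known from obesity genetics, was lowest in cluster 2 in each library, at 843 CPM, against 1953 CPM in cluster 0. Lsamp was at 8432, 6790.1, 4807, 4402 and 8264 CPM. The 4 IgLONs thus had their lowest levels in 3 different clusters. None of the CADMs, synaptic immunoglobulin proteins, reached a 2-fold range, at ratios of 1.46, 1.55 and 1.30, although Cadm2 was highest in cluster 2 in each library. Igsf11, an adhesion protein of excitatory synapses, had 48 of its 69 UMIs in cluster 1, at 27.4 CPM. It was higher in the 11 non-neuronal nuclei, at 155 CPM [80.3, 271] on 12 UMIs in 5 nuclei. Whether part of its UMIs in neuronal nuclei came from such cells was not tested.

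Within cluster 1, the authors label 71 nuclei LHb4 and 86 LHb2. Adgrl3 was lower in LHb4 than in LHb2 nuclei, at 410.5 against 964 CPM, a ratio of 0.426 [0.372, 0.487]. By library it was at 331, 409 and 456 CPM in LHb4 nuclei of mothers, virgin males and virgin females, and 889.8, 978 and 995 CPM in their LHb2 nuclei. Lrrtm3 (129 against 317 CPM, a ratio of 0.409 [0.320, 0.518]), Opcml (761 against 1488 CPM, a ratio of 0.511 [0.462, 0.565]) and Clstn2 (224 against 378 CPM, a ratio of 0.592 [0.488, 0.715]) were likewise lower in LHb4 nuclei in 3 of 3 libraries. The size of the split was uneven for Clstn2 and Opcml. Clstn2 was at 199.9 against 600.4 CPM in virgin males, 174 against 309.8 CPM in mothers and 268 against 313 CPM in virgin females. Without virgin males its ratio was 0.753 [0.596, 0.945], and 1 nucleus held 10.6% of its UMIs in cluster 1. Opcml was at 1136 against 1272 CPM in mothers, a smaller split than in the other libraries. Nlgn1 (3771 against 2633 CPM, a ratio of 1.43 [1.36, 1.51]) and Cadm1 (1058 against 709 CPM, a ratio of 1.49 [1.35, 1.66]) were higher in LHb4 nuclei in 3 of 3. In virgin males Cadm1 was near equal, at 902 against 888 CPM. These genes are examples, as other members, among them Nrxn3 (0.6602), Il1rapl1 and Tenm1 (1.38), also kept one direction in 3 of 3 libraries. The share of all genes that split this way was not computed. Il1rapl2, which was highest in cluster 1 with cluster 4 second, was near equal between the labels, at 990.2 against 957 CPM, a ratio of 1.03 [0.937, 1.14]. Igsf11 had 57.4 against 8.38 CPM, a ratio of 6.85 [3.26, 16.1], on 39 and 9 UMIs, and 2.06 [0.489, 9.93] without virgin females, on 6 and 4 UMIs. The labels were assigned from the same nuclei, so these ratios describe them and test nothing.

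Nuclei of one cluster could also differ from each other. The spread was measured as the excess squared coefficient of variation over counting error in nuclei thinned to 5000 UMIs, for genes with a mean of at least 1 UMI. The members' median excess was 0.154, 0.383, 0.195, 0.158 and 0.248 in clusters 0 to 4, over 19 to 23 members, beside 0.143, 0.237, 0.132, 0.115 and 0.128 over all genes at that mean. Nrxn3 had an excess of 1.23 in cluster 0 and 1.41 in cluster 1, the clusters where its level was lowest, against 0.152 in cluster 3. The 90th percentile of single nuclei in cluster 1 was 2613 CPM in mothers, 1650.1 CPM in virgin males and 2649 CPM in virgin females, beside medians of 603 CPM in mothers, 460.0 CPM in virgin males and 713 CPM in virgin females. A single nucleus held 27.7% of that cluster's Nrxn3 UMIs in mothers, 32.0% in virgin males and 7.63% in virgin females, so its mean there rests in part on 1 nucleus in each of the first 2 libraries. Opcml had an excess of 0.797, 1.04, 0.262, 0.636 and 1.34, least in cluster 2, where it was most abundant. Tenm2 varied most in cluster 0 (0.816) and Tenm3 in cluster 2 (1.23), while Ptprd and Lsamp, present in nearly every nucleus, had at most 0.182 and 0.322.

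**Figure D3:**
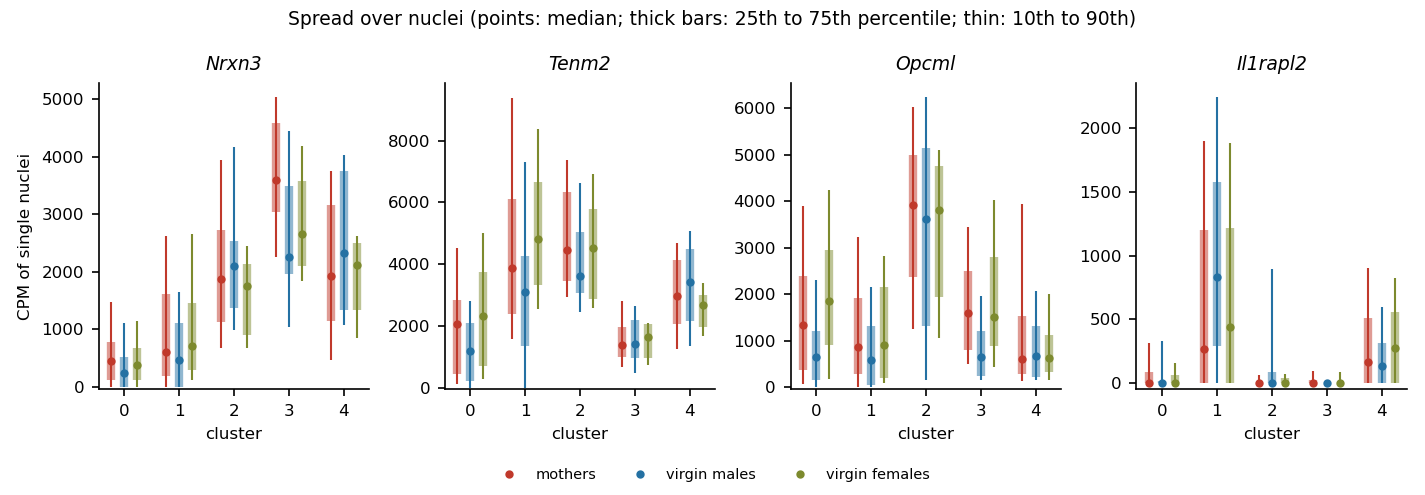
CPM of single nuclei by cluster and library for Nrxn3, Tenm2, Opcml and Il1rapl2; points are medians, thick bars the 25th to 75th and thin bars the 10th to 90th percentile, in red for mothers, blue for virgin males and olive for virgin females. In clusters 0 and 1 the Nrxn3 medians lie at or below 713 CPM with long upper tails, and the Il1rapl2 median is 0 in clusters 0, 2 and 3.

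Between libraries most adhesion genes were close. In mothers against virgin females, 1 of 40 members was higher by 1.5-fold or more (3.83% of all 10388 genes) and 2 were lower (3.66%), among genes that had 50 UMIs or more in these libraries. The median log2 ratio was -0.11 over members and -0.01 over all genes. Nrxn3 was the higher gene, at 2007 CPM in mothers, 1696 CPM in virgin males and 1309 CPM in virgin females. The ratio of mothers to virgin females was 1.53 [1.47, 1.60], and mothers were above virgin females in 5 of 5 clusters, by 1.29, 1.08, 1.34, 1.29 and 1.17 in clusters 0 to 4. Cluster 1 turned to 0.866 without the nucleus richest in Nrxn3 in each library, which leaves 4 of 5 clusters. With every cluster given the same share of nuclei in both libraries the ratio was 1.23, under the threshold. In clusters 2, 3 and 4, where Nrxn3 was high, the mothers' library held 22.9%, 17.4% and 16.9% of its neurons. The library of virgin females held 13.9%, 9.09% and 9.63% there. Nrxn3 also missed the threshold without the 5% of nuclei with most UMIs (log2 0.54, against 0.62 with them).

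The lower genes in mothers were Slitrk5, with 10.8 CPM in mothers, against 20.6 CPM in virgin females (0.523 [0.322, 0.833]), and Igsf11, with 6.32 CPM in mothers, against 16.2 CPM in virgin females (0.390 [0.209, 0.697]). Slitrk5, an adhesion protein known from striatal and compulsive phenotypes in mice, rests on 29 and 56 UMIs and was lower in mothers in 5 of 5 clusters. Igsf11 rests on 17 and 44 UMIs, of which 1 nucleus held 6 and 8, and without the richest nucleus of each library it fell under the 50-UMI minimum. Igsf11 was lower in mothers in only 2 of 5 clusters. The other 37 members had ratios between 0.708 (Slitrk4) and 1.33 (Lrrtm2, 44.6 CPM in mothers, against 33.5 CPM in virgin females). All 4 teneurins lay below 1, as did 26 of 40 members and 5345 of 10388 genes, from 0.865 [0.827, 0.904] for Tenm1 to 0.943 [0.916, 0.970] for Tenm2, which was at 1.00 with the same cluster mix. Il1rapl2 also turned with the mix, from below 1 (0.748 [0.677, 0.826]) to 1.08. Slitrk1 was at 1.22 [0.909, 1.64], a direction that turned in thinned nuclei (log2 -0.08).

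**Figure D4:**
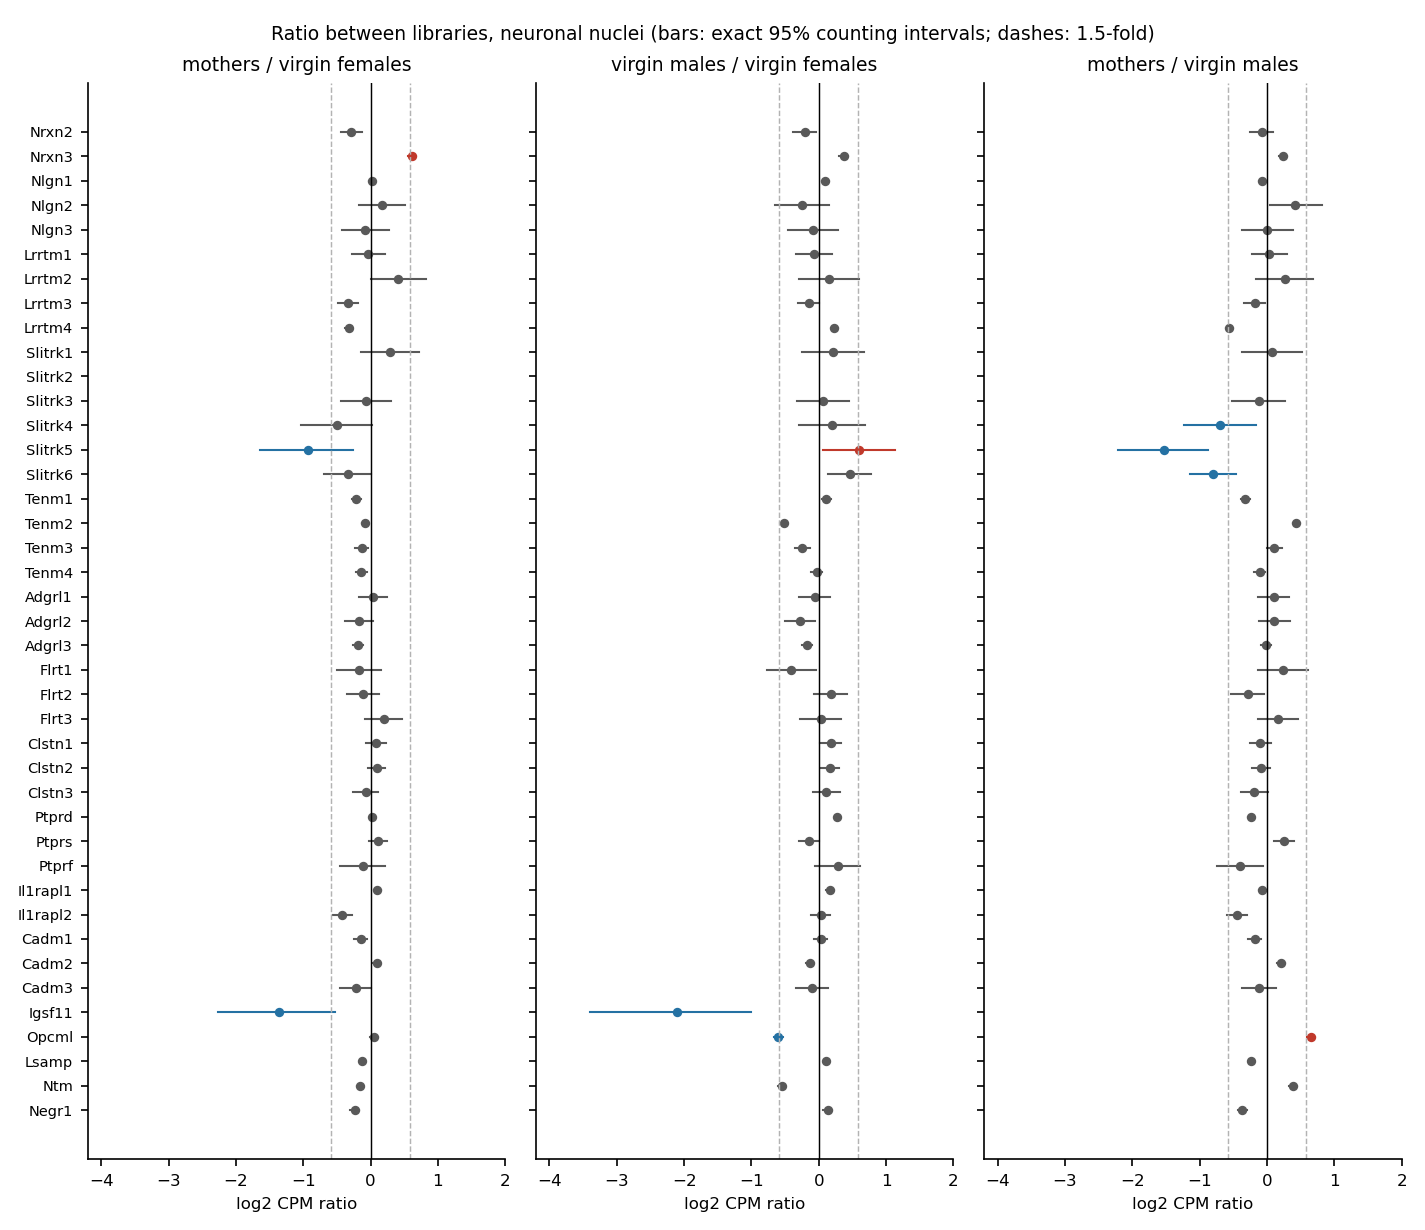
Log2 ratio of CPM between libraries for members that had 50 UMIs or more in both libraries together; points are ratios, bars exact 95% counting intervals and dashed lines 1.5-fold, with red for higher and blue for lower beyond it. In mothers over virgin females Nrxn3 lies beyond the line on the right and Slitrk5 and Igsf11 on the left; Opcml is low in virgin males over virgin females and high in mothers over virgin males.

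In virgin males against virgin females, 1 of 40 members was higher (2.98% of 10024 genes) and 2 were lower (4.58%), with a median log2 ratio of 0.03 over members and -0.03 over all genes. Opcml was lower, at 1364 CPM in virgin males and 2071 CPM in virgin females, a ratio of 0.659 [0.629, 0.689]. It was past 1.5-fold in clusters 0 and 3. In cluster 0 Opcml was at 1069 CPM in virgin males and 2371 CPM in virgin females (0.451 [0.413, 0.492]). In cluster 3 it was at 824 CPM in virgin males and 1991 CPM in virgin females (0.414 [0.367, 0.466]), on 39 and 17 nuclei. Clusters 1, 2 and 4 gave 0.829, 1.09 and 1.07. In the median nucleus of cluster 3 virgin males were also below virgin females, at 637 CPM against 1516 CPM. The whole-library ratio was 0.728 with the same cluster mix, and log2 -0.52 without the 5% of nuclei with most UMIs, both short of the threshold. Ntm, beside Opcml in the genome, was also lower in virgin males, at 2081 CPM against 3043 CPM in virgin females (0.684 [0.659, 0.709]), in clusters 0 to 3 and not in cluster 4 (1.18). Tenm2 was at 2487 CPM in virgin males and 3572 CPM in virgin females (0.696 [0.673, 0.720]), lower mainly in cluster 0 (0.599 [0.554, 0.647]) and cluster 1 (0.676 [0.638, 0.716]). Both missed 1.5-fold.

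Igsf11 was the other lower gene, on 8 UMIs in virgin males and 44 in virgin females (0.233 [0.0947, 0.50]). Slitrk5 was the higher one, at 31.1 CPM in virgin males and 20.6 CPM in virgin females (1.51 [1.04, 2.19]), and it passed the threshold by little. Nrxn3 was at 1.30 [1.24, 1.36] and Slitrk6 at 1.38 [1.10, 1.72]. Ptprd was 1.21 times as high in virgin males, at 5603 CPM against 4638 CPM in virgin females, in 5 of 5 clusters. Lrrtm4 likewise was above virgin females in 5 of 5 clusters (1.18 [1.14, 1.22]).

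In mothers against virgin males, 1 of 39 members was higher (4.25% of 9990 genes) and 3 were lower (3.01%), with a median log2 ratio of -0.08 over members and 0.02 over all genes. This comparison shares its libraries with the others and is no separate evidence. Opcml was higher, at 2146 CPM in mothers, against 1364 CPM in virgin males (1.57 [1.5, 1.65]), in 5 of 5 clusters and most in cluster 3 (2.33 [2.09, 2.60]). It was 1.30 with the same cluster mix. The lower genes were all SLITRKs. Slitrk6 was at 46.4 CPM in mothers, against 81.0 CPM in virgin males (0.573 [0.452, 0.726]), with the lowest ratio in cluster 3, at 39.5 CPM in mothers, against 128 CPM in virgin males (0.310 [0.183, 0.504]). Slitrk4 (0.617 [0.424, 0.894]) and Slitrk5 (0.347 [0.216, 0.544]) rest on 54 and 29 UMIs in mothers and 69 and 66 in virgin males. Slitrk1 and Slitrk3 were not lower by that much, at 1.05 [0.777, 1.43] and 0.918.

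Lrrtm4 missed the threshold between mothers and virgin males (0.679 [0.654, 0.704]) but was lower in mothers in 5 of 5 clusters. In cluster 3 it was at 1455 CPM in mothers, against 3101 CPM in virgin males (0.469 [0.431, 0.510]), and in cluster 1 at 2739 CPM in mothers, against 4216 CPM in virgin males (0.650 [0.604, 0.698]). The lateral habenula marker list was also lower in mothers, at 1088 CPM in mothers, against 1534 CPM in virgin males and 1361 CPM in virgin females. In cluster 3 the list was at 825, 1487 and 1217 CPM in these libraries, and in cluster 1 at 1473, 2584 and 1737 CPM. In clusters 2 and 4 mothers were lowest as well, at 924 and 1641 CPM. Virgin males were at 1254 and 1906 CPM there, and virgin females at 1292 and 1875 CPM. In cluster 0 the list was at 869 CPM in mothers, above virgin males at 820.5 CPM and below virgin females at 978 CPM. Its part in the Lrrtm4 ratios was not tested. Tenm2 was at 1.35 [1.31, 1.40] and Nlgn2 at 1.34 [1.03, 1.76]. The remaining members lay between 0.679 and 1.35. Depth per nucleus was lowest in virgin males, as given above. With nuclei thinned to one depth, Opcml kept its direction (log2 0.68 in mothers over virgin males). Of the 3 lower genes Slitrk6 was still past 1.5-fold, and Slitrk4 and Slitrk5 fell under the 50-UMI minimum, at log2 -0.78 on 39 UMIs and -1.43 on 28 UMIs. Leaving out the 5 ependymal-rich nuclei of virgin males changed no count of genes past 1.5-fold.

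**Figure D5:**
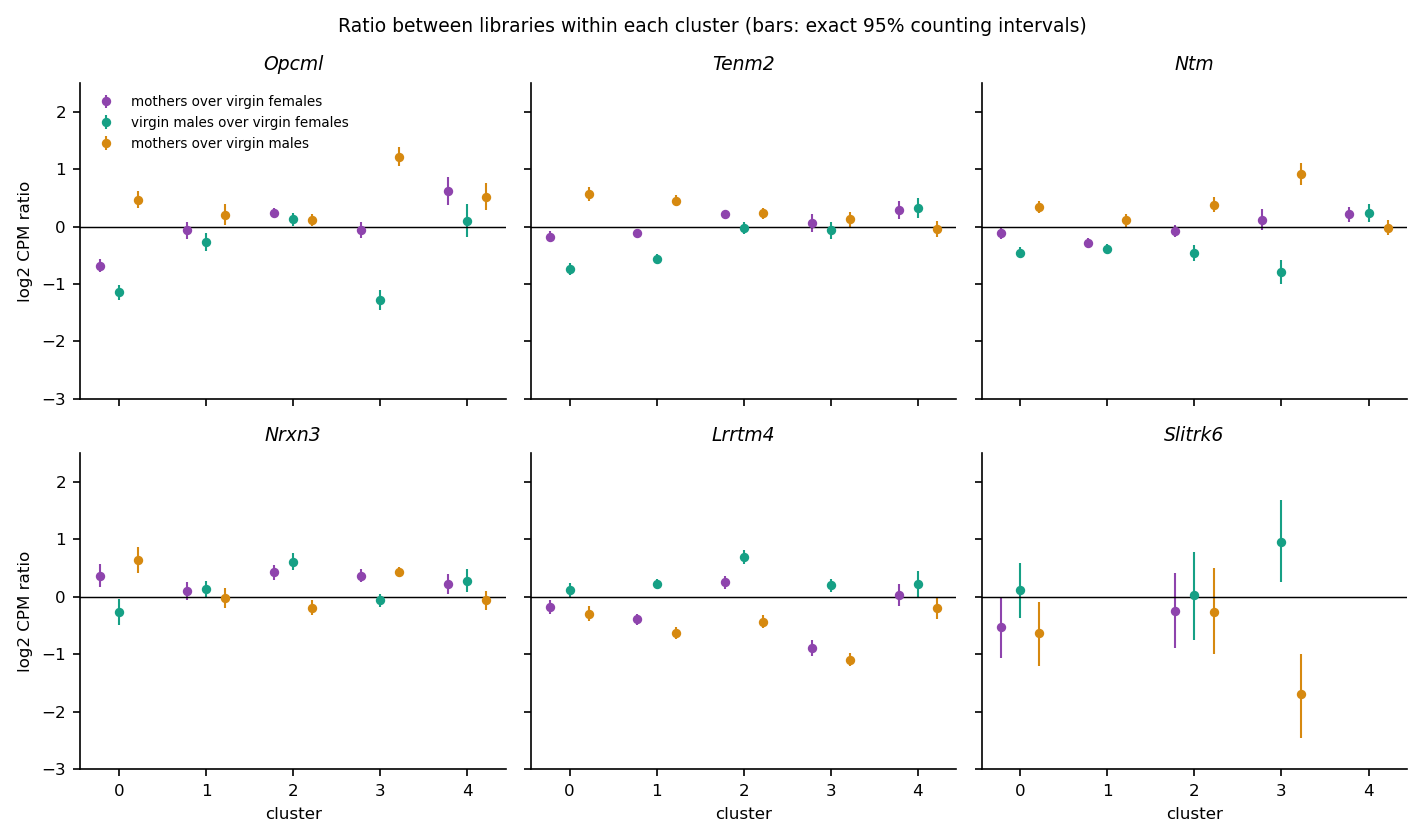
Log2 ratio of CPM between libraries within each cluster for 6 genes, shown where a pair had at least 50 UMIs; points are ratios and bars exact 95% counting intervals, in purple for mothers over virgin females, green for virgin males over virgin females and orange for mothers over virgin males. Opcml departs from 0 mostly in clusters 0 and 3, Lrrtm4 in mothers over virgin males is lowest in cluster 3, and Nrxn3 in mothers over virgin females lies above 0 in each cluster, of which cluster 1 turned to a ratio of 0.866 without the richest nucleus of each library.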

How the data were processed

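The authors deposited a table of raw UMI counts per gene and nucleus, and a table of annotations for each nucleus, giving library, broad class, subtype labels, cluster number and percent of mitochondrial UMIs. Per the submitters' processing notes, Cell Ranger 5.0.1 was used with GRCm38 (mm10). Per the labels' protocols, libraries were 10x 3′ libraries of sorted nuclei. The sources used here do not state intron counting, use of strand, filters or doublet removal. The deposited metadata percent was used only to check the join: the 603 nuclei of both tables were matched by total UMIs and genes detected, which was unique, and the recomputed percent was the same.

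Counts of the 592 neuronal nuclei were summed per library, cluster and both, and scaled to CPM (1000000). CPM carry exact Poisson, shares Clopper-Pearson and ratios conditional binomial 95% intervals. They cover counting error only, and leave out the spread between nuclei and mice. A cluster at 0 was set to a floor of 3 UMIs. Nuclei under 5000 UMIs were left out of thinned values (14 in mothers, 30 in virgin males and 15 in virgin females). No doublet caller was run. No barcode occurred more than once. Ratios between libraries required 50 UMIs in the pair, cluster patterns 200 UMIs. Genes with a cluster pattern, those past 1.5-fold and the 3 highest and 3 lowest ratios of each pair were described with values, and other members by ranges, with Tenm2, Ntm, Lrrtm4, Ptprd and Slitrk6 followed further after their values were seen. The members and lists were chosen with earlier results of these data known. Gene coordinates, spans and overlaps come from GENCODE vM21 on GRCm38, promoters from RefSeq (GRCm38.p6), in which 34 of 41 members matched; TAAT and TATAAA were searched after the other motifs. Python 3.11.15, pandas 2.3.3 and scipy 1.17.1 were used.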

Additional observations from a re-analysis of the deposited data

Results flagged for a closer look

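Of 123 combinations of a member and a pair of libraries, 4 had ratios past 1.5-fold in opposite directions in different clusters, each with an interval that left out 1. Whether the clusters differ was not tested, since each value rests on 1 library per group. The 4 combinations come from 475 ratios within clusters with at least 50 UMIs. Such opposite ratios were found in 4 of the 107 member combinations with at least 2 clusters at that depth (3.74%), and in 228 of 13761 over all genes (1.66%).

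Opcml in mothers over virgin females had a ratio of 0.624 [0.578, 0.674] in cluster 0, at 1481 CPM in mothers, against 2371 CPM in virgin females, and 1.53 [1.30, 1.81] in cluster 4, at 1557 CPM in mothers, against 1016 CPM in virgin females. Over the whole libraries the ratio was 1.04 [0.998, 1.07]. The cluster 4 ratio rests on 34 nuclei of mothers and 18 of virgin females, in the cluster where Opcml varied most between nuclei (excess 1.34). Adgrl2, a latrophilin, in virgin males over virgin females was at 0.454 [0.313, 0.648] in cluster 0, 0.576 [0.413, 0.790] in cluster 1 and 1.72 [1.19, 2.53] in cluster 3. Lrrtm3 was at 0.651 [0.498, 0.845] in cluster 2 and 1.65 [1.07, 2.56] in cluster 4 of the same pair, the cluster 4 value on 58 and 37 UMIs. Flrt2 was at 1.52 [1.17, 1.97] in cluster 1 and 0.642 [0.433, 0.953] in cluster 3. Without the nucleus richest in the gene in each library the ratios were 0.635 and 1.56 for Opcml, 0.445, 0.538 and 1.80 for Adgrl2, 0.620 and 1.61 for Lrrtm3, and 1.56 and 0.669 for Flrt2, of which the last was within 1.5-fold.

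The 11 non-neuronal nuclei, left out of every comparison, held 714 UMIs of 31 members, or 0.924% of their UMIs, against 3.98% in neuronal nuclei. Lsamp (151 UMIs), Ntm (75) and Adgrl3 (65) led. These nuclei were shallower, at a median of 4780 UMIs against 11380 in neurons.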

How the results depend on the processing

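No paired analysis was possible because each group is 1 library and the labels give no replicate that pairs them. Counts of members past 1.5-fold are small, so single genes move them. In mothers over virgin females the higher count (1) was 0 without the 5% of nuclei with most UMIs, with the same cluster mix and as a mean of per-nucleus CPM, 2 past a ratio of 5 to 4 and 0 past 2-fold. The lower count (2) was 1 without the richest nuclei, 0 at 200 UMIs or more, 7 past a ratio of 5 to 4 and 1 past 2-fold. In virgin males over virgin females the higher count (1) was 0 in thinned nuclei, at 200 UMIs or more and past 2-fold, 2 at 10 UMIs and 3 past a ratio of 5 to 4. The lower count (2) was 0 without the deepest 5%, 5 past a ratio of 5 to 4, and 1 under 6 settings (richest nuclei left out, thinned, same mix, scaled to the median, 200 UMIs, 2-fold). In mothers over virgin males the higher count (1) was 0 without the deepest 5%, with the same mix and past 2-fold, 3 in thinned nuclei, 2 at 10 UMIs and 4 past a ratio of 5 to 4. The lower count (3) was 1 in thinned nuclei, at 200 UMIs and past 2-fold, and 8 past a ratio of 5 to 4. The cluster pattern count (10) ranged from 10 to 14 with 1 library left out (14 without virgin females), was 5 at a 3-fold range and lay between 7 and 12 under the other settings. Of 238 recomputed values, which cover the named ratios between libraries and between clusters, 237 kept their direction, the exception being Slitrk1 in mothers over virgin females, and 34 left the counting interval of the reported value. Outside them, with the same cluster mix, mothers over virgin females turned for Il1rapl2 (0.748 to 1.08), Tenm2 (0.943 to 1.00) and Opcml (1.04 to 0.944). Within clusters, the ratios said to hold in 5 of 5 clusters did so without the richest nucleus of each library too, other than Nrxn3, an alternative chosen after the data were seen, as was leaving out 1 library from the label ratios. Nrxn3 in virgin males over virgin females was at log2 0.16 as a mean over nuclei, against 0.37 reported. Depth limits the SLITRKs and Igsf11 above all, and differences between mice within a group could not be seen.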

Other observations

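Known partners of these proteins outside the 41 genes were read by the same rules. Of 28 extracellular partners and kin, 23 had at least 200 UMIs, and 8 of those had a cluster pattern, beside 16.6% of all genes at that depth. Il1rap, the interleukin-1 receptor accessory protein whose neuronal form binds LAR-type phosphatases, was at 506 CPM in cluster 3 and 19.3 CPM in cluster 4, a ratio of 26.2. Nxph1, a secreted ligand of neurexins, was at 1875 CPM in cluster 0, where Nrxn3 was lowest, and 143 CPM in cluster 4. Ntng2, a netrin-G protein that binds Lrrc4, was at 151 CPM in cluster 4, 49.6 CPM in cluster 1 and at most 2.93 CPM elsewhere. Its relative Ntng1, also one of the thalamic markers used above, was at 4196, 829.7, 4312, 4909 and 314 CPM in clusters 0 to 4 with a highest cluster that differed between libraries. Lrrc4c, the receptor of Ntng1, was at 2771 CPM in cluster 4 and 483 CPM in cluster 3, so the ligand and its receptor were highest in different clusters. Ntrk3, a neurotrophin receptor that also binds a LAR-type phosphatase, ran from 595 CPM in cluster 1 to 87.4 CPM in cluster 3. Adgrb1, Adgrb3 and Kirrel3 completed the 8. Elfn1, a postsynaptic organiser of presynaptic glutamate receptors, was at 104 CPM in cluster 1 and at most 10.3 CPM elsewhere, on 197 UMIs, under the minimum for the rule.

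Of 28 scaffold and linker genes, 27 had at least 200 UMIs and 6 had a pattern, beside 16.6% of all genes at that depth. Shank2, Shank3 and Dlgap4, of the postsynaptic density, were highest in cluster 3, at 379, 224 and 289 CPM, and Trio was highest there too. Dlg2, a membrane-associated guanylate kinase, was at 3159.5 CPM in cluster 1 and 1364 CPM in cluster 3, and Lin7a at 262 CPM in cluster 1 and 104 CPM in cluster 2. Dlgap2, without a pattern, was at 222 CPM in cluster 4 and 4.07 CPM in cluster 3. Gphn, the gephyrin scaffold of inhibitory synapses, stayed between 651 and 793 CPM. None of the scaffold genes passed 1.5-fold between any pair of libraries, where between 2.98% and 4.58% of all genes did so in each direction.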
